A study of Homo sapiens with 6 samples.

Results

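The Notch pathway was examined in AsPC-1, a long-established line of human pancreatic cancer cells, through 10 of its genes among the 58735 genes of the deposited table. They were found by symbol, and all 10 were present: the receptors NOTCH1, NOTCH2 and NOTCH3, the ligands JAG1, JAG2 and DLL1, the receptor-modifying enzyme LFNG, and the target genes HES1, HEY1 and NRARP. RNA sequencing compared 3 libraries of cells that had received an empty lentivirus (Vector, labelled WT) with 3 libraries of cells that carried a lentivirus for MMP28, a secreted matrix metalloproteinase (OE-MMP28). According to the study's methods, the lentiviral vectors carried GFP and a puromycin resistance gene, and cells were selected as a stably transduced population after infection, so both groups had been through infection and selection. Whether the 3 libraries of a group came from separate cultures is not given in the sources used here, and p-values then measure only the spread between these libraries.

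Notch signalling passes between touching cells. A Jagged or Delta-like ligand on one cell pulls on a Notch receptor of its neighbour, ADAM10 and then the gamma-secretase complex cut the receptor, and the freed intracellular part enters the nucleus, where it binds the DNA-binding protein RBPJ and a Mastermind coactivator and switches on genes such as HES1, HEY1 and NRARP. In the pancreas the pathway holds embryonic progenitors undifferentiated, and HES1 is known to come back when acinar cells take on ductal features.

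HES1, which encodes a transcriptional repressor and is the classical direct Notch target, was the only one of the 10 genes that passed the test. This 1 gene is 14.3% of the 7 tested, where 11.7% of all 15319 genes tested were higher. The level of HES1 was about 3-fold higher in OE-MMP28 cells. The other target with a measurable level, NRARP, and the receptors, ligands and LFNG did not pass the test, and NOTCH3, DLL1 and HEY1 were too low to be tested. The promoter of HES1 is printed because the RBPJ core motif could be looked for there, and that of NRARP because it is the target beside which HES1 is read. Both are the 250 bases before the RefSeq start site (GRCh38.p14), 5′ to 3′ on the strand of the gene, for HES1 chr3:194135898-194136147 on the plus strand and for NRARP chr9:137302272-137302521 on the minus strand. Capitals mark each match to TGGGAA, core letters of RBPJ sites. Only these letters were searched for RBPJ, so sites with other letters, if present, are not marked.
HES1 promoter: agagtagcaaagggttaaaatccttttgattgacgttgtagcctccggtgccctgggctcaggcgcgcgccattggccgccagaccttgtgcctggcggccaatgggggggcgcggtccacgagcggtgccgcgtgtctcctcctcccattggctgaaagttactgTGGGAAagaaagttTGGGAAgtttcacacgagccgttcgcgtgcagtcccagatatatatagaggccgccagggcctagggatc
NRARP promoter: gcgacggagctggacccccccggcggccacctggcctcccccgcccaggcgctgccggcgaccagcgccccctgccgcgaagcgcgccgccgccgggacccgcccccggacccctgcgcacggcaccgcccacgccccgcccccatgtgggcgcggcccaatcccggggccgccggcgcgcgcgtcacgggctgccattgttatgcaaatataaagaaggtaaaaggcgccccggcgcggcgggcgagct

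The HES1 promoter held 2 matches to TGGGAA, whose first bases lay 84 and 70 bases before the start, both on the strand of the gene. The NRARP promoter held 0 on either strand. RefSeq promoters were matched for 8 of the 10 genes, all but DLL1 and HEY1, and TGGGAA was in none of the other 7. Among all 35116 promoters of the same length, 20.8% held it on one strand or the other. The N box, CACNAG, which HES proteins bind, was found at 3 places before HES1, starting 165, 132 and 58 bases before its start, and in 32.0% of all promoters. Among the other 7 genes only NOTCH3 had an N box, 211 bases before its start. These are matches of letters in a window and were not measured as binding sites. The RefSeq start of HES1 lies 3 bases downstream of the gene start in the deposited table, and that of NRARP lies 20 bases upstream.

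The 6 libraries held between 13633249 and 16691458 counts, and those of Vector cells (at most 14985715) were all smaller than those of OE-MMP28 cells (at least 15568066), so comparisons were made on scaled counts. MMP28 itself was above the Vector range in all 3 OE-MMP28 libraries, 13.1 to 15.1 FPKM against 5.17 to 9.11, with a log2 fold change of 0.90 (SE 0.19, adjusted p = 0.00226, edgeR). FPKM is a fragment count divided by gene length and by library size. Of the epithelial markers fixed for the check of the cell line, EPCAM, KRT8, KRT18, KRT19, CDH1 and CLDN4, all 6 were measured, with a sum of 2674 to 3650 FPKM in Vector and 3572 to 4376 FPKM in OE-MMP28 libraries. KRT19 rose, and CDH1 and CLDN4 fell. Endothelial markers summed to at most 0.293 FPKM, with KDR and TEK at a count of 0 in every library and PECAM1 at 0 to 4 counts in Vector and 13 to 30 counts in OE-MMP28 libraries, and myeloid markers to at most 1.09 FPKM, most of it CD14, with AIF1 at a count of 0 in 4 libraries and at 4 and 3 counts in OE-MMP28 replicates 2 and 3. Fibroblast markers summed to between 33.9 and 57.0 FPKM, and LUM alone accounted for 33.8 to 56.9 FPKM, while COL1A1, COL3A1, DCN and PDGFRB had at most 11 counts in any library. The part of these markers in the results below was not tested. In such bulk samples, fewer cells that express a gene and less of its RNA per cell cannot be told apart.

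HES1 (ENSG00000114315, chromosome 3, 194136145 to 194138732, plus strand) had 17.6, 27.7 and 14.7 FPKM in Vector replicates 1, 2 and 3, from 554, 773 and 447 counts. In OE-MMP28 replicates 1, 2 and 3 it had 56.9, 51.3 and 74.2 FPKM, from 1854, 1676 and 2573 counts. All 3 OE-MMP28 libraries therefore stood well above all 3 Vector libraries, and the lowest of them was higher than the highest Vector library by more than the whole Vector range. The means were 20.01 ± 6.85 FPKM for Vector and 60.8 ± 11.9 FPKM for OE-MMP28 (SD, n = 3 each), a ratio of 3.04. The log2 fold change was 1.62 (SE 0.21, 95% interval 1.19 to 2.04), and the quasi-likelihood test of edgeR gave an adjusted p of 1.41e-05 (Benjamini-Hochberg, over all 15319 genes tested). Among the 2056 tested genes with a Vector mean at or above that of HES1, 3 had a larger log2 fold change, and among all genes tested 193 did.

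The rise of HES1 passed the test in all 16 alternative fits, with log2 fold changes between 1.21 and 1.92 and adjusted p-values of at most 0.00216. Leaving out single libraries gave 1.44 to 1.92, the highest without Vector replicate 2, which had the highest Vector level. Counting without mitochondrial genes, whose share of counts was 11.9% to 14.8% in Vector and 8.80% to 11.9% in OE-MMP28 libraries, gave 1.59. The region around HES1 was also shifted: of its 103 tested neighbours within 10 Mb on chromosome 3, 42 passed the test as higher and 2 as lower, and their median log2 fold change was 0.41. Only 2 of these neighbours had a larger value than HES1. With each gene measured against the median of its neighbours, the log2 fold change of HES1 was 1.21 with an adjusted p of 0.000406.

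**Figure D1:**
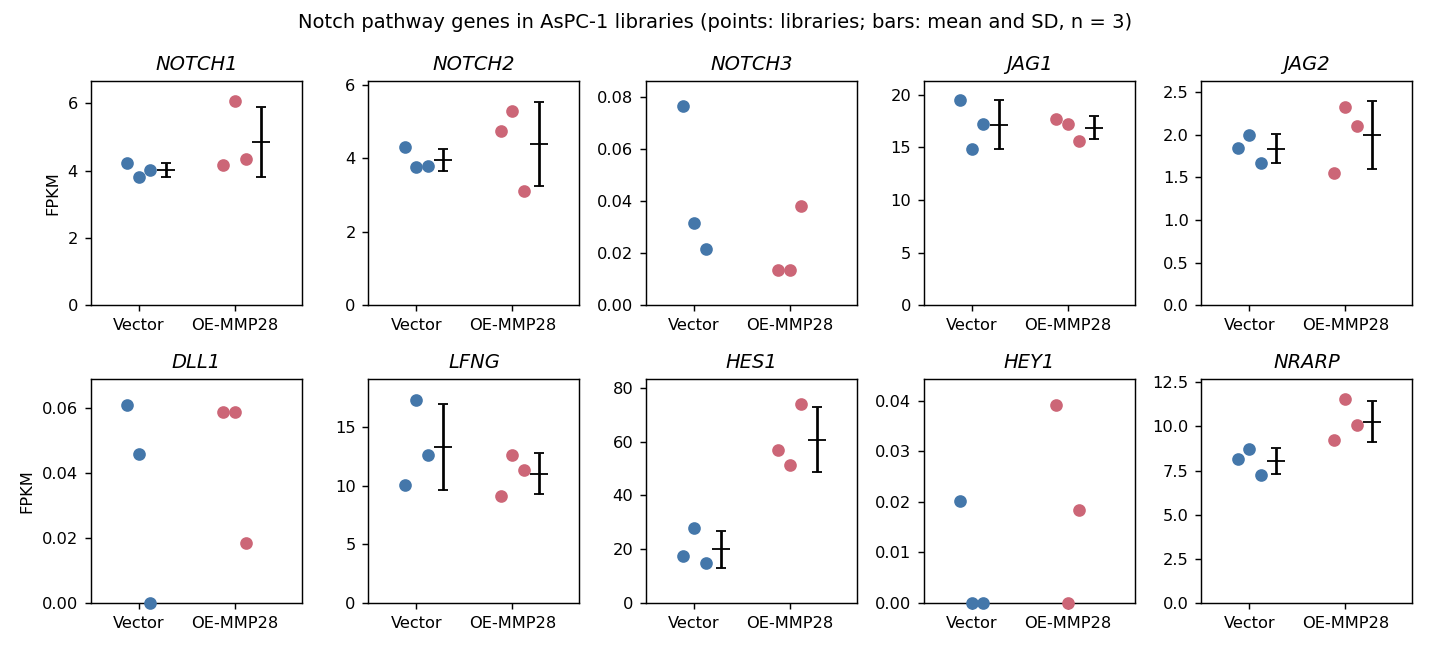
FPKM of the 10 Notch genes (y axes from 0, one scale per gene) in the 3 Vector libraries (blue) and the 3 OE-MMP28 libraries (red); points are libraries in replicate order, and black bars give the mean and SD, left out for NOTCH3, DLL1 and HEY1 because of their low counts. HES1 lies between 14.7 and 27.7 FPKM in Vector and between 51.3 and 74.2 FPKM in OE-MMP28 libraries, and NRARP is the only other gene whose groups do not overlap.

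NRARP (ENSG00000198435, chromosome 9, 137300482 to 137302251, minus strand) encodes a small ankyrin-repeat protein that is switched on by Notch and feeds back to limit it. It had 8.13, 8.69 and 7.25 FPKM in Vector replicates 1, 2 and 3, and 9.22, 11.5 and 10.1 FPKM in OE-MMP28 replicates 1, 2 and 3. The groups did not overlap, although the gap between them was smaller than the range of the OE-MMP28 libraries. The log2 fold change of 0.37 (SE 0.18, 95% interval -0.0082 to 0.75) had an adjusted p of 0.148 and did not pass the test in any of the 16 alternative fits, where adjusted p-values lay between 0.101 and 0.472. Within each library, the ratio of HES1 to NRARP in FPKM was 2.16, 3.19 and 2.03 in the Vector replicates and 6.17, 4.44 and 7.36 in the OE-MMP28 replicates. These ratios did not overlap, and a two-sided exact permutation test of their log2 values gave p = 0.1, the smallest that 3 against 3 libraries allow. This ratio was chosen after the values of both genes were seen.

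HEY1 (ENSG00000164683, chromosome 8, 79764010 to 79767863, minus strand), a repressor related to HES1, was at the limit of detection. Its counts were 1, 0 and 0 in the Vector replicates and 2, 0 and 1 in the OE-MMP28 replicates, while a count of 0 allows up to 3 counts, or 0.220 CPM (counts scaled to library size) in the smallest library. No fold is given, and a difference in HEY1 was not detectable at this depth. Such limits and the count intervals below cover counting error only and leave out the spread between libraries. They also treat reads as independent molecules, which reads are not.

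Among the receptors, NOTCH1 (ENSG00000148400, chromosome 9, 136494433 to 136545786, minus strand) had 4.23, 3.80 and 4.02 FPKM in Vector replicates and 4.17, 6.05 and 4.35 FPKM in OE-MMP28 replicates. The groups overlapped, with OE-MMP28 replicate 2 alone standing high. Its log2 fold change was 0.29 (95% interval -0.068 to 0.64, adjusted p = 0.237, edgeR), and without OE-MMP28 replicate 2 it was 0.083.

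NOTCH2 (ENSG00000134250, chromosome 1, 119911553 to 120069626, minus strand) had 4.30, 3.76 and 3.79 FPKM in Vector replicates and 4.76, 5.30 and 3.10 FPKM in OE-MMP28 replicates. The OE-MMP28 libraries lay on both sides of the Vector range, which was the narrower one. The log2 fold change was 0.16 (95% interval -0.21 to 0.53, adjusted p = 0.556, edgeR), and without OE-MMP28 replicate 2 it was -0.014. The human genome holds partial copies of NOTCH2, and of those in the table NOTCH2NLA had between 2 and 10 counts per library and NOTCH2P1 had 0, against 853 to 1412 counts of NOTCH2. How reads that match several copies were counted is not given in the sources used here.

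NOTCH3 (ENSG00000074181, chromosome 19, 15159038 to 15200981, minus strand) had 11, 4 and 3 counts in Vector replicates and 2, 2 and 6 counts in OE-MMP28 replicates, at most 0.0766 FPKM, and was not tested. The summed counts were 18 (exact Poisson 95% interval 10.7 to 28.5) and 10 (4.80 to 18.4), a ratio of OE-MMP28 to Vector of 0.496 on library-scaled counts with an exact interval of 0.205 to 1.13. NOTCH4, the remaining human receptor, summed to 16 and 27 counts. The receptor RNA of these cells was thus that of NOTCH1 and NOTCH2, in near-equal parts per length: NOTCH1 made up 49.2%, 50.1% and 51.3% of the summed FPKM of NOTCH1, NOTCH2 and NOTCH3 in Vector replicates. In OE-MMP28 replicates its share was 46.7%, 53.3% and 58.1%, a wider spread that covered the Vector values. The mean share differed by 2.50 percentage points (two-sided exact permutation p = 0.6), and without OE-MMP28 replicate 3 by -0.22. The near-equal parts rest on gene lengths of 10377 bases for NOTCH1 and 16807 for NOTCH2. On CPM, without division by length, the mean share of NOTCH1 was 38.5% in Vector and 40.9% in OE-MMP28 libraries. That of NOTCH2 was 61.2% and 58.9%.

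The ligands were dominated by JAG1 (ENSG00000101384, chromosome 20, 10637684 to 10673999, minus strand), with 19.5, 14.8 and 17.2 FPKM in Vector replicates and 17.7, 17.3 and 15.6 FPKM in OE-MMP28 replicates. All OE-MMP28 values fell inside the Vector range. The log2 fold change was -0.017 (95% interval -0.33 to 0.29, adjusted p = 0.953, edgeR). Its exons overlap by 0.850% with the antisense gene AL050403.2, which had at most 5 counts.

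JAG2 (ENSG00000184916, chromosome 14, 105140981 to 105168824, minus strand) had 1.84, 2.00 and 1.67 FPKM in Vector replicates and 1.55, 2.33 and 2.10 FPKM in OE-MMP28 replicates. The OE-MMP28 libraries again spread over both sides of the Vector range, with a log2 fold change of 0.13 (95% interval -0.29 to 0.56, adjusted p = 0.680, edgeR). The neighbours of JAG2 on chromosome 14 had a median of 0.54, with 43 of 91 higher and 1 lower, and measured against that median JAG2 had -0.40 (adjusted p = 0.193). A transcript on the same strand, AL512356.1, covers 7.33% of its exon length and had a count of 0 in every library.

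DLL1 (ENSG00000198719, chromosome 6, 170282206 to 170306565, minus strand) had counts of 3, 2 and 0 in Vector replicates and 3, 3 and 1 in OE-MMP28 replicates. No library exceeded 3 counts, so no fold is given. JAG1 accounted for 87.9% to 91.2% of the summed FPKM of JAG1, JAG2 and DLL1 in Vector libraries and for 87.9% to 91.7% in OE-MMP28 libraries, which overlapped throughout (difference of means -0.864 percentage points, two-sided exact permutation p = 0.9). That difference was -2.10 without OE-MMP28 replicate 1 and -1.95 without Vector replicate 2, and with any other library left out it lay between -0.337 and -0.198.

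LFNG (ENSG00000106003, chromosome 7, 2512529 to 2529177, plus strand) encodes Lunatic fringe, a Golgi enzyme that adds a sugar to Notch receptors and thereby shifts their response from Jagged towards Delta-like ligands. It had 10.1, 17.3 and 12.6 FPKM in Vector replicates and 9.14, 12.7 and 11.4 FPKM in OE-MMP28 replicates. The groups overlapped, and Vector replicate 2 was the highest library. The log2 fold change was -0.26 (95% interval -0.66 to 0.15, adjusted p = 0.362, edgeR), and without Vector replicate 2 it was -0.026.

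**Figure D2:**
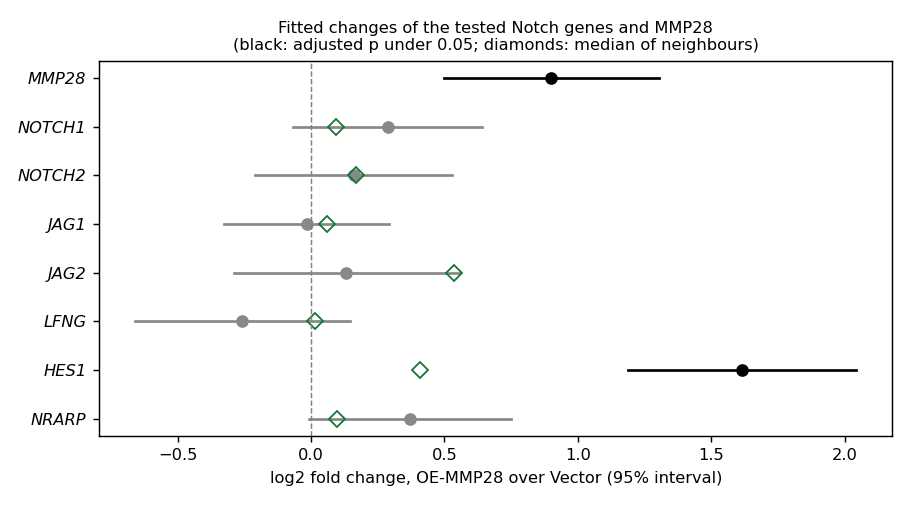
Log2 fold change of OE-MMP28 over Vector (x axis) for MMP28 and the 7 tested Notch genes (rows); points are edgeR estimates, lines their 95% intervals, black where the adjusted p was under 0.05, and diamonds the median of tested neighbours within 10 Mb. HES1 stands at 1.62 with its interval above the neighbour median of 0.41, and the intervals of the other 6 Notch genes include 0.

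Of the 10 genes, 7 passed the filter on low counts. Of these, 1 (HES1) passed the test as higher and 0 as lower, where 11.7% of all 15319 genes tested were higher and 11.6% lower. In 2 of the 7, HES1 and NRARP, all 3 OE-MMP28 libraries were above all 3 Vector libraries and in 0 they were all below, where the shares among all genes tested were 19% above and 19.1% below. The 1 higher call is 14.3% of the 7 genes, near the 11.7% of all genes that were higher, and in either direction 23.4% of all genes passed. The median log2 fold change of the 7 was 0.16, beside 0.014 for all genes tested, and 5 of the 7 were positive. The count of 1 was the same in all 16 alternative fits.

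Per length, the order of levels in Vector cells was HES1, JAG1 and LFNG, whose libraries overlapped, then NRARP, then NOTCH1 and NOTCH2, which did not differ beyond their spread, and then JAG2. NOTCH3, DLL1 and HEY1 were each below 0.08 FPKM in every library. In OE-MMP28 cells HES1 was above JAG1 in every library, by ratios of 3.21, 2.97 and 4.75 in replicates 1, 2 and 3, against 0.902, 1.87 and 0.855 in Vector replicates. LFNG and NRARP then overlapped, and NOTCH1, NOTCH2 and JAG2 kept their places.

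**Figure D3:**
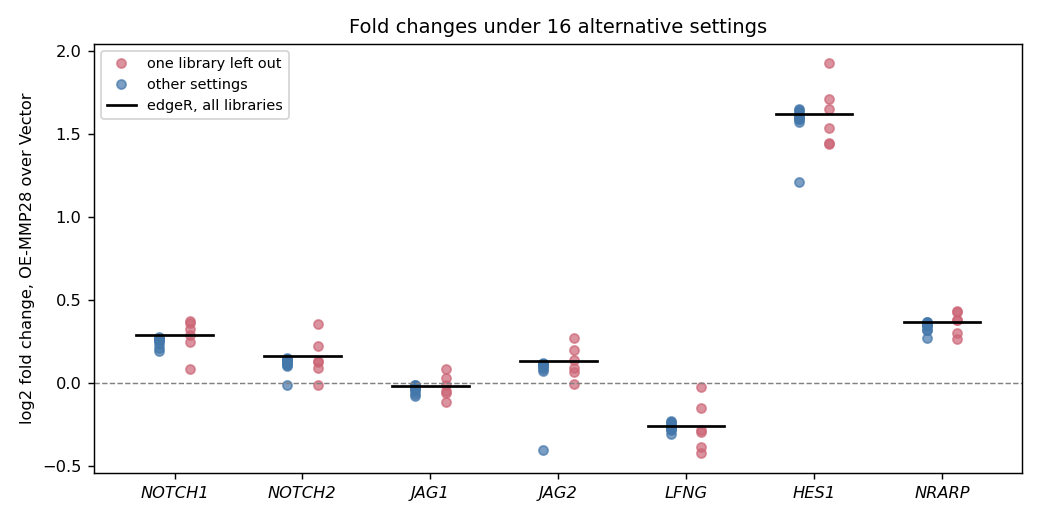
Log2 fold change of OE-MMP28 over Vector (y axis) for the 7 tested Notch genes under the edgeR fit of all libraries (black line), with one library left out (red points) and under the other 10 settings (blue points). HES1 stays between 1.21 and 1.92, while NOTCH2, JAG1 and JAG2 take values on both sides of 0.

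The wider pathway was read from 64 further genes listed by function, of which 54 were tested. Of these, 5 were higher and 4 lower, 16.7% of those tested, where 23.4% of all genes tested passed in either direction. The median log2 fold change was 0.020. Of those past the threshold, DTX3 (higher) and DLL4 and HES7 (lower) passed the filter on low counts only through their high group. The counts of 5 and 4 and the share of 16.7% include these genes. Their calls are given as a description, and the counts are not read as support. Without OE-MMP28 replicate 2 the counts were 3 and 4, without Vector replicate 1 they were 6 and 8, with upper-quartile scaling 5 and 7, and measured against neighbour medians 2 and 5.

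None of the 9 genes of receptor cleavage passed the test, with log2 fold changes between -0.75 and 0.36. Of all genes tested, 23.4% passed in either direction, and counts in lists this small are given as a description. ADAM10, the enzyme of the first ligand-induced cut, had a log2 fold change of 0.20 (adjusted p = 0.396, edgeR), and ADAM17, a related sheddase, -0.39 (adjusted p = 0.107). Without Vector replicate 2 the adjusted p of ADAM17 was 0.0453, and measured against its neighbours, whose median was -0.41, its log2 fold change was 0.022. None of the 6 glycosylation genes passed either, with values between -0.94 and 0.38.

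Of 9 tested genes of the activator complex, 2 were higher and 0 lower. Of all genes tested, 11.7% were higher and 11.6% lower, and counts in a list this small are a description. RBPJ, the DNA-binding partner of Notch, had -0.29 (adjusted p = 0.197, edgeR) and the coactivator MAML1 -0.080 (adjusted p = 0.745). MAML2, another Mastermind coactivator, rose by 0.68 (adjusted p = 0.00437), with 10.4 to 14.2 FPKM in Vector and 17.2 to 23.0 FPKM in OE-MMP28 libraries. SNW1, a cofactor of splicing and of Notch transcription, also rose by 0.68 (adjusted p = 0.00531), from 21.4 to 29.4 FPKM up to 36.2 to 48.7 FPKM. The groups of both genes did not overlap, where 19% of all genes tested had all OE-MMP28 libraries above all Vector libraries. Neighbours of MAML2 had a median of 0.49 and those of SNW1 of 0.61, and measured against them both calls were lost (0.19, adjusted p = 0.468, and 0.067, adjusted p = 0.827). Genes on the other strand cover 7.72% of the exon length of MAML2 (AP000779.1) and 4.85% of that of SNW1 (SLIRP), and whether counting used the strand is not given in the sources used here.

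Of 9 tested corepressor genes, 1 was lower and 0 were higher, where 11.6% of all genes tested were lower and 11.7% higher. CIR1, which encodes a corepressor that binds RBPJ, fell by 1.60 (adjusted p = 0.000483, edgeR), from 9.68, 30.6 and 13.2 FPKM to 6.76, 5.22 and 5.47 FPKM. Its groups did not overlap, where 19.1% of all genes tested had all OE-MMP28 libraries below all Vector libraries. Vector replicate 2 stood far above the other libraries, and without it the log2 fold change was -0.97 (adjusted p = 0.000471).

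Of 11 tested genes of ubiquitin tagging and trafficking, 1 was higher and 1 lower. Of all genes tested, 11.7% were higher and 11.6% lower. NUMBL, related to the Notch antagonist NUMB, fell by 1.07 (adjusted p = 0.000831, edgeR), from 2.62 to 4.08 FPKM down to 1.42 to 1.78 FPKM. DTX3, a Deltex-family gene, rose by 1.83 (adjusted p = 0.00238) at a low level, from 8 to 17 counts per Vector library up to 36 to 59. DTX3 passed the filter on low counts only through its high group, so these counts are a description. The groups of both genes did not overlap. Those of FBXW7, which did not pass, did not overlap either and were lower in OE-MMP28 cells (-0.41, adjusted p = 0.0638). Among all genes tested, 19% had all OE-MMP28 libraries above all Vector libraries and 19.1% all below.

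Further ligands and HES or HEY factors were mostly absent or low. DLL4, a Delta-like ligand best known from blood vessels, had 15 counts in each Vector library and 0, 5 and 1 counts in OE-MMP28 replicates 1, 2 and 3. The summed counts of 45 and 6 gave a ratio on library-scaled counts of 0.119 (exact interval 0.0415 to 0.280). The fitted log2 fold change was -2.97 (adjusted p = 0.00379, edgeR) and was -4.75 without OE-MMP28 replicate 2. HES7, an oscillating repressor of the somite clock, had 30, 17 and 35 counts in Vector and 3, 3 and 5 counts in OE-MMP28 replicates, a ratio of 0.120 (exact interval 0.0575 to 0.226, adjusted p = 0.000263). HES7 had at most 1.27 FPKM in any library. The other 3 tested genes of the HES and HEY list, HES2, HES4 and HES6, did not pass the test, with log2 fold changes between -0.22 and 0.26 and adjusted p-values of 0.965, 0.529 and 0.653.

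Genes that other cell types are known to switch on through Notch were taken as a last list of 4. Of these, 2 were higher and 0 lower, where 11.7% of all genes tested were higher and 11.6% lower. Counts in so small a list are a description. CCND1, which encodes cyclin D1, rose by 0.52 (adjusted p = 0.0207, edgeR), from 49.4 to 72.4 FPKM up to 75.0 to 90.7 FPKM, and CDKN1A, which encodes the cell cycle inhibitor p21, rose by 0.66 (adjusted p = 0.0229), from 5.58 to 10.04 FPKM up to 10.5 to 11.9 FPKM. Neither group pair overlapped, where 19% of all genes tested had all OE-MMP28 libraries above all Vector libraries. Both calls were lost when single libraries were left out. CCND1 was lost without Vector replicate 2, Vector replicate 3, OE-MMP28 replicate 1 or OE-MMP28 replicate 2, with adjusted p-values of 0.0723, 0.105, 0.0701 and 0.0879, and against its neighbours (0.23, adjusted p = 0.355). CDKN1A was lost without Vector replicate 2, Vector replicate 3, OE-MMP28 replicate 2 or OE-MMP28 replicate 3, with adjusted p-values of 0.0749, 0.132, 0.109 and 0.0630, and with limma on log2(FPKM + 1) (adjusted p = 0.0540). Without Vector replicate 1, its highest Vector library, the log2 fold change of CDKN1A was larger, 0.99 (adjusted p = 0.000431). LTO1 on the other strand covers 10.3% of the exon length of CCND1. MYC and SOX9 did not pass the test, with log2 fold changes of 0.10 (adjusted p = 0.672, edgeR) and 0.31 (adjusted p = 0.144). The groups of SOX9 did not overlap either, with 16.5 to 21.7 FPKM in Vector and 22.1 to 23.9 FPKM in OE-MMP28 libraries. Those of MYC overlapped.

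**Figure D4:**
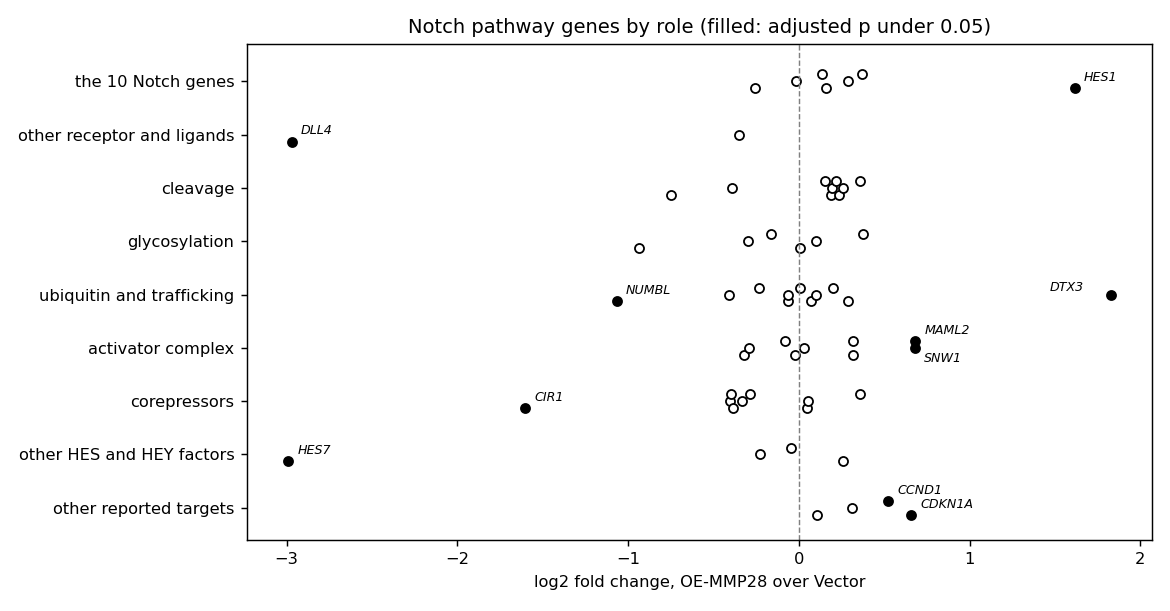
Log2 fold change of OE-MMP28 over Vector (x axis) for the tested genes of 9 lists by role in the Notch pathway (rows); each point is a gene, filled where the adjusted p was under 0.05. HES1 at 1.62 is the only filled point among the 10 Notch genes, and 5 of the 9 filled points in the other lists lie to the right of 0. DTX3, DLL4 and HES7 are among these 9 and passed the filter on low counts only through their high group.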

How the data were processed

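RNA of 6 AsPC-1 libraries was sequenced by the authors, and HISAT2 2.0.5 and featureCounts 1.5.0-p3 are named in the submitters' processing notes. The authors deposited 1 table with raw read counts per gene and library and with FPKM values. FPKM recomputed from counts and gene lengths differed by 1 factor per library. Gene coordinates were those of GENCODE release 29 on GRCh38 for 58724 of 58735 genes. The deposited table also held 5 columns with group means, fold changes and p-values of the authors' comparison, which were not used. The number of unmapped per-sample columns was 0.

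Groups and replicate numbers came from sample titles. Counts were tested with edgeR 4.0.16 (R 4.3.3): filterByExpr (minimum count 10, minimum total 15), TMM scaling, a quasi-likelihood test of group, and Benjamini-Hochberg adjustment over 15319 genes, with a threshold of 0.05. Intervals on fold changes are 95% intervals from the fit. Shares and ratios were compared on FPKM by exact permutation. Promoters were taken from RefSeq (GRCh38.p14), searched over 250 bases.

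The members, gene lists and named genes were chosen with earlier results of these data known. Named were the 10 genes, other pathway genes past the threshold, RBPJ, MAML1, ADAM10, ADAM17, NOTCH4, MMP28, markers and overlapping genes. Some genes of the lists that did not pass, such as FBXW7 and SOX9, were named beside them. One gene of the corepressor list is not reported here and was left out of the list counts, but stayed in the fit over all genes. Alternatives were RLE and upper-quartile scaling, no filter, DESeq2 1.42.0, limma 3.58.1 (voom, and log2(FPKM + 1) or log2(FPKM + 0.1) with a trend), a replicate block, counts without mitochondrial genes, an offset for the neighbour median (10 Mb on either side, at least 10 neighbours) and leaving out each library. The edgeR, DESeq2, voom and log2(FPKM + 1) fits were tested on simulated data. The offset fit was tested there only with known shifts given to it, and the taking of neighbour medians was not simulated. No library pair was a duplicate, with a chi-square per degree of freedom of at least 15.6 within groups.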

Additional observations from a re-analysis of the deposited data

How the results depend on the processing

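Of the 10 Notch genes, HES1 alone passed the test under each of the 16 alternatives. Values on the other side of 0 came from genes that had not passed: measured against neighbour medians, NOTCH2 was -0.0094, JAG2 -0.40 and ADAM17 0.022. Leaving out 1 library gave -0.014 to 0.36 for NOTCH2, -0.11 to 0.084 for JAG1 and -0.0081 to 0.27 for JAG2, and -0.22 to 5.51 percentage points for the NOTCH1 share of receptor FPKM. Of the 54 other pathway genes, 5 higher and 4 lower became 2 higher with the neighbour offset, 7 lower with upper-quartile scaling, and 3 to 6 higher and 4 to 8 lower with 1 library left out. Over all genes, 1795 higher and 1784 lower became 1101 higher with the neighbour offset, and 985 to 1916 higher and 1044 to 1949 lower with 1 library left out, the lowest without OE-MMP28 replicate 2 (1136 higher without Vector replicate 3). The causes were not tested. No pairing by replicate number was seen: deviations from group means correlated at 0.0168, 0.00798 and -0.0876 for replicates 1, 2 and 3. Between unlike replicate numbers the values ran from -0.148 to 0.167. Whether a number marks a shared culture is not given, and these correlations cannot decide it. With the replicate block, 1844 genes were higher and 1841 lower, HES1 had 1.65, no call among the 10 Notch genes changed, and 5 of the other pathway genes were higher and 5 lower. Without the filter on low counts, 6 of the other pathway genes were higher and 6 lower, beside 1739 higher and 1893 lower over all genes. The number of genes fitted in that setting is not given here, so no shares are printed. With 3 libraries a group, differences inside the printed intervals could not be resolved.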

Other observations

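Of the 64 other pathway genes, 10 stayed under the filter on low counts and were read singly, after their values were seen. They were tested only in the alternative without that filter, whose counts of calls are given above, and no single call is read from it here. In 7 of the 10 the counts of the groups overlapped, and in 3 they did not. DLK1, DTX1 and HEYL, among the 7, had a count of 0 in every library and could not differ. Among all genes tested, 19% had all OE-MMP28 libraries above all Vector libraries and 19.1% had them all below. Those shares are of genes that passed the filter, unlike these 10. DNER, a Delta and Notch-like transmembrane protein of neurons, had 0, 1 and 1 counts in Vector replicates and 7, 12 and 13 counts in OE-MMP28 replicates. DLL3, an atypical Delta-like protein that inhibits Notch from within the cell, had 10, 5 and 8 counts in Vector replicates and 0, 3 and 3 counts in OE-MMP28 replicates. TLE4, a Groucho-family corepressor that HES proteins recruit, had 5, 5 and 1 counts in Vector and 15, 8 and 10 counts in OE-MMP28 replicates. The library totals were larger in the OE-MMP28 group.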
